A study of Homo sapiens with 6 samples.

Results

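The SLC25 genes encode the mitochondrial carriers, and they were taken here as every gene whose symbol is SLC25A followed by a number. This gave 48 genes of the 60611 in the count table, and 40 of them had enough reads to be tested. RNA was sequenced in 6 libraries of EndoC-BH5, an insulin-making line of human beta cells labelled WT in both groups: 3 libraries of cells given the cytokines interferon gamma and interleukin 1b, and 3 of cells given vehicle. The comparison asks which carrier transcripts differ when a beta-cell line is exposed to this pair of inflammatory cytokines. All 6 libraries come from 1 line, and the sources used here give neither the cytokine doses nor how long they were applied. The series speaks of batches, without saying whether these are separate cultures, so the p-values measure the spread between these libraries, which may be technical. A fall in a gene's reads in bulk RNA cannot be told apart from fewer cells of a kind that carries it.

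SLC25 proteins are built from a repeated membrane module and sit, with few exceptions, in the inner mitochondrial membrane. Each moves a small molecule between cytosol and matrix, such as ADP and ATP, phosphate, citrate, glutamate, iron or a cofactor. In beta cells, carriers of citrate, malate, aspartate and glutamate link glucose oxidation to insulin secretion, because they pass reducing equivalents and carbon between the compartments.

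Levels below are CPM, a gene's share of a library's reads, scaled for library size and for composition by the trimmed mean of M values (TMM). Changes are log2 ratios, cytokine relative to vehicle, given with a standard error (SE) and tested with edgeR over 17847 genes, and a gene was called higher or lower at an adjusted p under 0.05. Library totals were 16175364, 13689972 and 14805245 estimated counts in the cytokine libraries, against 5871481, 10257431 and 15894082 in the vehicle libraries. Of all tested genes 57.1% were called, 28.3% as higher and 28.8% as lower. Composition scaling moved the median of all genes to -0.02 on the log2 scale, against -0.22 with scaling by library size alone, so small changes depend on that choice. All 6 genes of a cytokine response check rose, among them IRF1 at a mean of 1229 CPM in cytokine libraries, against 20.1 CPM in vehicle libraries. All 10 beta-cell markers were detected, with INS at 3641 CPM in cytokine libraries, against 4012 CPM in vehicle libraries, and they summed to 13634 to 14269 CPM in the cytokine libraries and 10040 to 10645 CPM in the vehicle libraries. IAPP carried the higher sum, at 8238 CPM with cytokines against 3998 CPM with vehicle, while 7 of the 10 markers were lower, among them G6PC2 by a log2 change of -2.67, and 3 were higher, or 2 by library size alone. Of 7 markers of other islet cells 6 passed the count filter, and the list summed to 627.4 to 662.3 CPM in the cytokine libraries and 606.8 to 677 CPM in the vehicle libraries, most of it SST. Within it GCG was lower, at 25.7 CPM with cytokines against 44.5 CPM with vehicle, and IRX2 was higher, by a log2 change of 0.62. Of 13 exocrine, duct, stromal, endothelial and immune markers, 5 passed the count filter. Among these 5 was the acinar gene CPA1, at 5.22 CPM with cytokines against 5.60 CPM with vehicle, which was not called. The acinar genes PRSS1 and CELA3A were at 0 CPM throughout, CELA3A with at most 0.5 estimated counts in a library. That list summed to 168.8 to 182 CPM in the cytokine libraries and 166.8 to 182.4 CPM in the vehicle libraries. Most of this sum was the duct marker KRT19, which was lower, at 134.7 CPM with cytokines against 160.9 CPM with vehicle. PDGFRB and CD68 within the list were higher with cytokines. The part of these marker changes in the results below was not tested.

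Among the 40 tested carriers, 9 rose and 17 fell with cytokines, and the other 14 missed the threshold. Called carriers made up 65.0% of those tested, near the background of 57.1%, with 22.5% higher and 42.5% lower. The median log2 change over the carriers was -0.11, against -0.02 over all tested genes, and the median size of change was 0.29 against 0.28. The carriers were spread in both directions, with changes as large as those of other genes in the median. The iron carrier SLC25A28, the glutamate carrier SLC25A22 and the ATP-Mg/phosphate carrier SLC25A25 rose most, and the basic amino acid carrier SLC25A29 fell most. In 26 carriers, those called and no others, the 3 cytokine libraries lay apart from the 3 vehicle libraries, while 61.1% of all tested genes had groups that did not overlap. Most calls were small: 18 of the 26 were under 1.5-fold, and only SLC25A28 and SLC25A29 reached 2-fold. When the test asked for a change beyond 1.5-fold, SLC25A28, SLC25A22 and SLC25A25 remained higher and SLC25A29 remained lower, against 7.82% of all genes higher and 5.32% lower.

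With scaling by library size alone, 5 carriers were higher and 27 lower, against a background of 16.7% higher and 49.2% lower among all genes. Those 5 were SLC25A28, SLC25A22, SLC25A25, SLC25A45 and SLC25A32, each among the 9 above. All 17 falls held on that scale, and 10 carriers that had not passed were called lower. The authors' deposited table of the same comparison, at an adjusted p under 0.05, called 8 of the 9 rises and 16 of the 17 falls. SLC25A38 missed that threshold, with an adjusted p of 0.052 in the authors' deposited table.

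**Figure D1:**
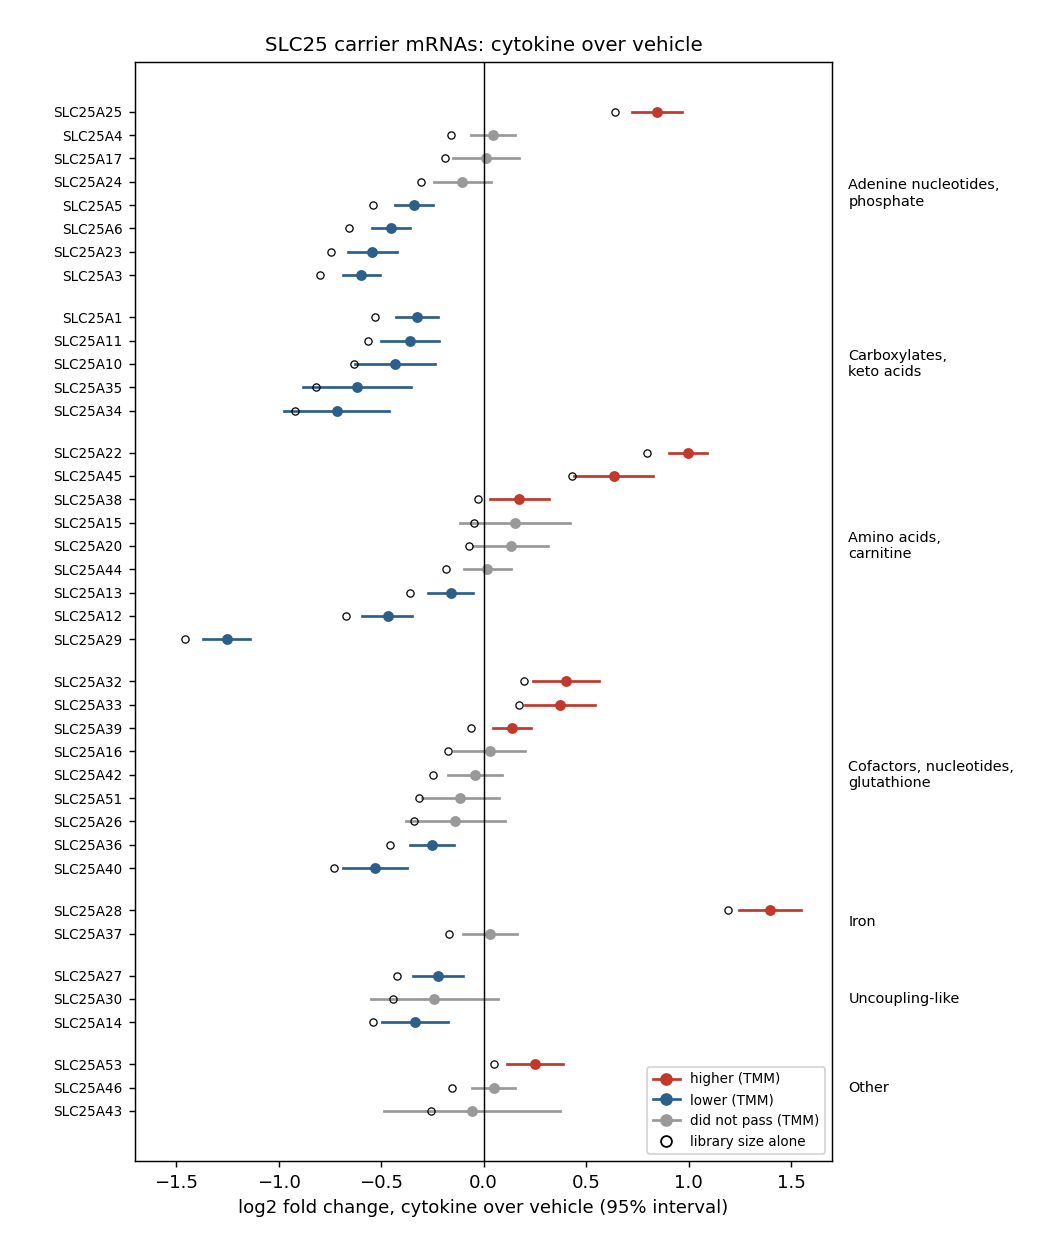
Log2 fold change of cytokine over vehicle for the tested SLC25 carriers described here, grouped by the molecule they carry, with 95% confidence intervals from edgeR and with the value under scaling by library size alone beside each. SLC25A28 at 1.40 and SLC25A29 at -1.25 stand at the ends, and all 5 tested carriers placed in the carboxylate group lie below 0.

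The promoters of the 3 carriers with the largest changes are shown because interferon gamma and interleukin 1b act through transcription factors with known recognition motifs. Each window runs from 250 bases before to 50 bases after a RefSeq start on GRCh38.p14, read 5′ to 3′ along the gene. SLC25A28 lies at chr10:99620390-99620689 and SLC25A29 at chr14:100306395-100306694, both on the minus strand. The SLC25A22 window shown, 1 of 4 in the RefSeq table, is chr11:796189-796488 on the minus strand, and its capitals mark a match to the interferon-stimulated response element. It is shown because it holds this match, and the 3 other SLC25A22 windows held none of the motifs searched.
SLC25A28: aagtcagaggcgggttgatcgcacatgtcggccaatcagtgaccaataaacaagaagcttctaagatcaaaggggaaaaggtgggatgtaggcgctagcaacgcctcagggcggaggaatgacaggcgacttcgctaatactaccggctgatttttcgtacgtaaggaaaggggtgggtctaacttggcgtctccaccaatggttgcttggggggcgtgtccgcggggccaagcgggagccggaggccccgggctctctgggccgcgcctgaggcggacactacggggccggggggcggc
SLC25A22: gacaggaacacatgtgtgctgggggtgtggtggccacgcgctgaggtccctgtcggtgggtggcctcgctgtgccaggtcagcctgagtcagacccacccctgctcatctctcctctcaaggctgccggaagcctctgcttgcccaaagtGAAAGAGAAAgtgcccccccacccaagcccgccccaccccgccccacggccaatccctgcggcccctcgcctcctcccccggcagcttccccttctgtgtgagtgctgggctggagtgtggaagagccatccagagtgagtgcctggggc
SLC25A29: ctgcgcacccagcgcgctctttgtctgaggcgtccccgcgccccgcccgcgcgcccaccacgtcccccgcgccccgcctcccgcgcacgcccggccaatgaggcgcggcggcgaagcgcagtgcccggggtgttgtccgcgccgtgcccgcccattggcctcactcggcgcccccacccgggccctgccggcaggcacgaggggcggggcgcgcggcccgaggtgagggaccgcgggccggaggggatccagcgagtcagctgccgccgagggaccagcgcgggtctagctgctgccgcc
Motifs were searched on both strands: GAAA, then NN, then GAAA again for the interferon-stimulated response element (ISRE), TTCNNNGAA for the gamma-activated site (GAS), and the NF-kappaB consensus. Neither the SLC25A28 nor the SLC25A29 window held these letters, and the match in SLC25A22 starts at position -100 from the RefSeq start. Windows were searched for 40 of the 48 carriers, which gave 50 windows. SLC25A32, which was called higher, and the mitoferrin SLC25A37 were among the carriers left out of the search, so the shares below do not cover them. The windows of all genes may not have been selected in the same way, so the shares may not compare like sets. The ISRE letters were in 1 of these 50 windows, or 2.0%, against 3.57% of 35116 windows of all genes. GAS letters were in 5 windows, or 10%, against 7.66% of all windows, and the NF-kappaB letters in 3, or 6.0%, against 5.91%. A match or its absence describes the letters of these windows only.

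The mitoferrins, SLC25A28 and SLC25A37, bring iron into the matrix for heme and iron-sulfur cluster synthesis. SLC25A28, or mitoferrin-2, the form found in most tissues, is on chromosome 10 at 99610522 to 99620609 (GRCh38, minus strand). It stood at 38.2, 36.8 and 38.4 CPM in cytokine libraries 1 to 3, against 13.98, 13.8 and 14.9 CPM in vehicle libraries 1 to 3. Every cytokine library was above every vehicle library, and the libraries of each group were close together. The rise was 2.63-fold, or 1.40 on the log2 scale (SE 0.07, adjusted p = 4.7e-16). SLC25A37, or mitoferrin-1, known for iron supply in developing red cells, stood at 42.5, 46.2 and 46.9 CPM in cytokine libraries, against 41.8, 41.5 and 47.4 CPM in vehicle libraries. Its groups overlapped, and its log2 change of 0.03 had a 95% confidence interval of -0.10 to 0.17 (adjusted p = 0.69). With scaling by library size alone this change was -0.17 and passed the test, while SLC25A28 stayed higher at 1.19. Within each library, where scaling cancels out, the log2 difference of SLC25A28 minus SLC25A37 was -0.15, -0.33 and -0.29 with cytokines, against -1.57, -1.58 and -1.66 with vehicle. As a ratio of reads, SLC25A28 was at 0.837 of SLC25A37 in cytokine libraries and 0.329 in vehicle libraries.

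Ratios within a library were compared for 11 pairs of related carriers by a two-sided exact permutation test, whose smallest possible p is 0.1 with 3 libraries against 3. After adjustment over the 11 pairs the lowest p was 0.122, so no pair could pass a threshold of 0.05. The 2 mitoferrins differed by 1.35 between groups on the log2 scale (exact p = 0.1, adjusted p = 0.122), with no overlap between groups. Nuclear-encoded genes of mitochondrial iron, heme and iron-sulfur chemistry had 3 higher, 7 lower and 15 not passed of 25 tested. Among all tested genes 57.1% were called, with 28.3% higher and 28.8% lower. The share of falls in this list was thus near that of all genes, and the share of rises was below it. The same shares of all genes are the background for the other gene lists below. The heme synthesis gene UROS and the iron-sulfur factor BOLA3 rose by 0.47 and 0.45, whereas the heme synthesis enzyme PPOX and the reductase FDXR fell by 0.79 and 0.54 on the log2 scale.

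**Figure D2:**
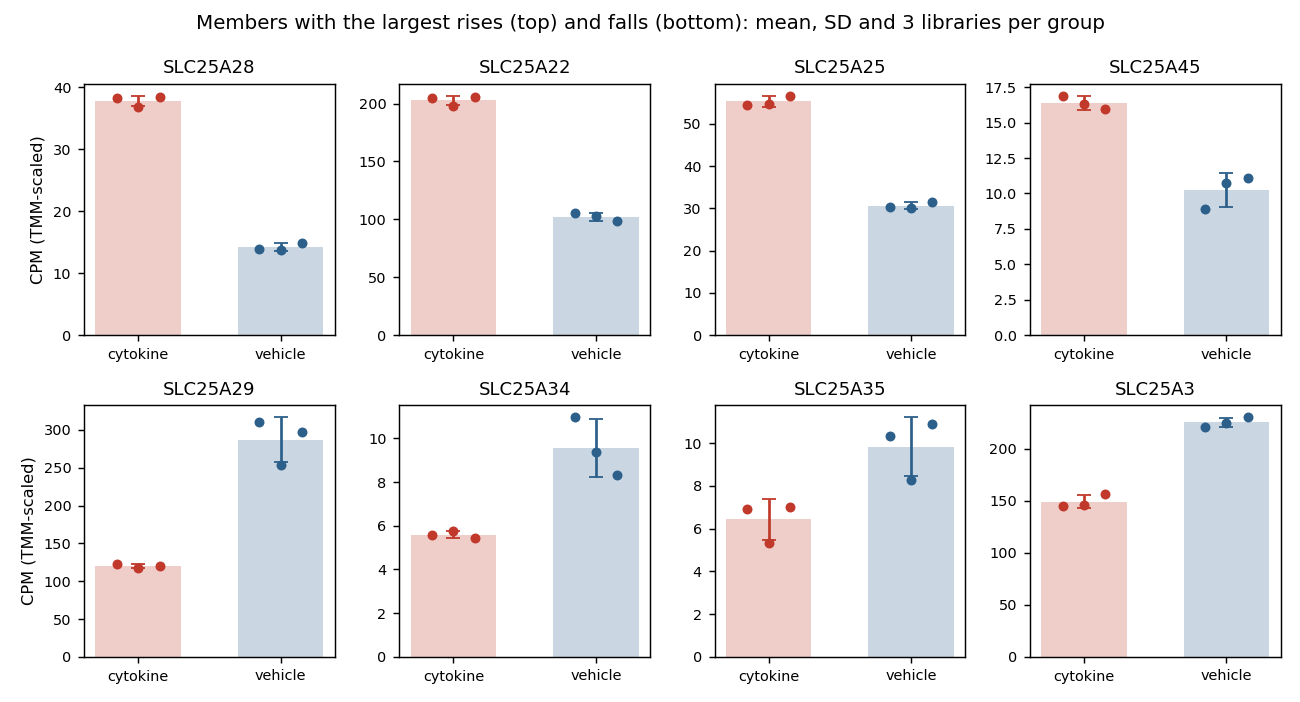
CPM in each of the 6 libraries for the carriers with the largest rises and falls, cytokine libraries on the left of each panel and vehicle libraries on the right, on linear axes from 0 with bars for group means and error bars for the SD. SLC25A28 lies between 36.8 and 38.4 CPM in cytokine libraries and between 13.8 and 14.9 CPM in vehicle libraries.

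Among carriers of amino acids and carnitine, 3 rose, 3 fell and 3 did not pass of 9 tested. SLC25A22, which brings glutamate into the matrix, is on chromosome 11 at 790475 to 798333 (minus strand). Its level was 205.0, 198.2 and 205.4 CPM in cytokine libraries, against 105.2, 102.5 and 98.7 CPM in vehicle libraries. The groups were far apart, and the rise was 2.00-fold, or 1.00 on the log2 scale (SE 0.05, adjusted p = 1.2e-17). It was 0.80 with scaling by library size alone. SLC25A18, its close relative, had at most 3 estimated counts in any library, so SLC25A22 gave nearly all reads of this glutamate carrier pair. PANO1, on the opposite strand over 10.8% of the SLC25A22 exon bases, was not analysed here.

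SLC25A29, which transports arginine, lysine and ornithine, is on chromosome 14 at 100291111 to 100306547 (minus strand). It stood at 122.4, 117.3 and 120.4 CPM in cytokine libraries, against 310.1, 253.3 and 297.1 CPM in vehicle libraries. All cytokine libraries were below all vehicle libraries, which spread more among themselves. The level was 2.38-fold lower with cytokines, a log2 change of -1.25 (SE 0.06, adjusted p = 1.6e-16), and -1.46 by library size alone. AL157871.6, a same-strand gene that overlaps 1.3% of the SLC25A29 exon bases, was also lower, at 7.25 CPM with cytokines against 19.2 CPM with vehicle. SLC25A15, the ornithine-citrulline carrier of the urea cycle, had 7.32, 8.02 and 7.68 CPM in cytokine libraries, against 4.77, 7.35 and 7.43 CPM in vehicle libraries. These groups overlapped, and its log2 change of 0.15 (95% confidence interval -0.12 to 0.42) did not pass and was -0.05 by library size alone. SLC25A15 minus SLC25A29 differed by 1.51 between groups (exact p = 0.1, adjusted p = 0.122), and no library of one group reached the other.

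SLC25A45, placed among the amino acid carriers, had 16.9, 16.4 and 15.9 CPM in cytokine libraries, against 8.90, 10.8 and 11.1 CPM in vehicle libraries. It was higher in all cytokine libraries, with a log2 change of 0.64 (SE 0.09, adjusted p = 1.2e-06). SLC25A38, which carries glycine for heme synthesis, had 39.5, 35.8 and 43.8 CPM with cytokines, against 35.8, 35.8 and 34.6 CPM with vehicle. The lowest cytokine library, at 35.84 CPM, was barely above the highest vehicle libraries at 35.75 CPM, and the log2 rise of 0.18 (adjusted p = 0.033) turned to -0.03 with scaling by library size alone. Leaving out cytokine replicate 3 or vehicle replicate 3 brought its adjusted p to 0.18 and 0.14.

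SLC25A12 and SLC25A13 are the calcium-stimulated aspartate/glutamate carriers of the malate-aspartate shuttle, which passes cytosolic NADH electrons into mitochondria. SLC25A12 had 34.9, 34.6 and 34.3 CPM in cytokine libraries, against 48.1, 49.1 and 46.9 CPM in vehicle libraries. SLC25A13 had 59.2, 61.5 and 59.8 CPM in cytokine libraries, against 70.7, 67.9 and 64.6 CPM in vehicle libraries. Both were lower without overlap, with log2 changes of -0.47 (SE 0.06, adjusted p = 8.6e-08) for SLC25A12 and -0.16 (SE 0.05, adjusted p = 0.012) for SLC25A13. Without cytokine replicate 1, vehicle replicate 1 or vehicle replicate 2, the SLC25A13 adjusted p was 0.071, 0.06 and 0.054. SLC25A12 minus SLC25A13 shifted by -0.30 on the log2 scale, without overlap (exact p = 0.1, adjusted p = 0.122). SLC25A44, a carrier of branched-chain amino acids, and SLC25A20, which exchanges carnitine and acylcarnitine, did not pass, at log2 changes of 0.02 and 0.13, which became -0.18 and -0.07 by library size alone.

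Every tested carrier placed in the carboxylate and keto acid group was lower with cytokines, 5 of 5, while 28.8% of all genes were lower. SLC25A34 and SLC25A35 were placed in this group as relatives of the known carboxylate carriers. SLC25A1 exports citrate, which feeds cytosolic acetyl-CoA and the pyruvate-citrate cycle. It stood at 117.0, 112.4 and 128.3 CPM in cytokine libraries, against 155.7, 147.0 and 147.4 CPM in vehicle libraries. SLC25A11, the oxoglutarate/malate carrier of the malate-aspartate shuttle, had 30.8, 26.6 and 31.5 CPM in cytokine libraries, against 39.1, 39.1 and 36.9 CPM in vehicle libraries. Neither gene's groups overlapped, and the log2 changes were -0.33 (SE 0.05, adjusted p = 2e-06) for SLC25A1 and -0.36 (adjusted p = 5.9e-05) for SLC25A11. SLC25A10 exchanges dicarboxylates such as malate and succinate for phosphate, and had 9.92, 10.2 and 11.7 CPM in cytokine libraries, against 14.8, 14.2 and 14.1 CPM in vehicle libraries. It was lower in every cytokine library, with a log2 change of -0.43 (adjusted p = 3.2e-04). The same-strand gene AC139530.2 covers 46.6% of its exon bases and shares 57.4% of its 75-base stretches, so reads may be split between them, and that gene stood at 22.3 CPM with cytokines against 25.3 CPM with vehicle. SLC25A10 minus SLC25A11 differed by -0.06 between groups, with overlap (exact p = 0.7, adjusted p = 0.7).

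SLC25A34 and SLC25A35 are related to the carboxylate carriers and are less well understood. SLC25A34 had 5.59, 5.74 and 5.43 CPM in cytokine libraries, against 10.96, 9.37 and 8.31 CPM in vehicle libraries, which is 73 to 83.5 estimated counts in the cytokine libraries. SLC25A35 had 6.92, 5.35 and 7.02 CPM in cytokine libraries, against 10.3, 8.27 and 10.9 CPM in vehicle libraries. Both were lower without overlap, with log2 changes of -0.72 (SE 0.13, adjusted p = 1.5e-05) for SLC25A34 and -0.62 (SE 0.13, adjusted p = 1.5e-04) for SLC25A35. RANGRF lies on the opposite strand over 33.2% of the SLC25A35 exon bases and was higher, at 18.3 CPM with cytokines against 13.6 CPM with vehicle. The sources used here do not say whether the counting used strand, so reads of the 2 genes cannot be told apart there.

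Enzymes of NADH shuttles and of citrate-pyruvate cycling were split: 6 rose, 7 fell and 3 did not pass of 16. Cytosolic glycerol-3-phosphate dehydrogenase GPD1 averaged 9.02 CPM in cytokine libraries and 31.5 CPM in vehicle libraries, a log2 change of -1.79. Its mitochondrial partner in the glycerol phosphate shuttle, GPD2, averaged 133.4 CPM with cytokines and 80.8 CPM with vehicle, a change of 0.71. Cytosolic isocitrate dehydrogenase IDH1 changed by -0.89, and the mitochondrial malic enzyme ME2 by 0.71. Enzymes of ornithine, glutamate and proline metabolism were split, with 4 higher, 6 lower and 4 not passed of 14. PRODH, which begins proline breakdown, fell to 16.1 CPM in cytokine libraries, against 42.4 CPM in vehicle libraries, and ALDH4A1, the next step, changed by -0.96, while PYCR3 and ASL rose by 0.26 and 0.25. The rises of PYCR3 and ASL were small. With scaling by library size alone none of these 14 genes was higher, against 16.7% of all tested genes. In the carnitine shuttle 2 rose and 4 fell of 7, with CROT at -0.90, CPT2 at -0.29, SLC22A5 at 0.28 and CPT1B at 0.25. None of these 7 was higher by library size alone, against 16.7% of all tested genes.

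Among carriers of adenine nucleotides and phosphate, 1 rose, 4 fell and 3 did not pass of 8 tested. SLC25A4, SLC25A5 and SLC25A6 are the ADP/ATP carriers, which export the ATP made in the matrix. SLC25A6 had 234.5, 236.9 and 248.5 CPM in cytokine libraries, against 339.1, 343.0 and 306.3 CPM in vehicle libraries. SLC25A5 had 141.5, 150.4 and 152.1 CPM in cytokine libraries, against 185.7, 194.4 and 181.5 CPM in vehicle libraries. Both were lower in every cytokine library, with log2 changes of -0.45 (SE 0.05, adjusted p = 8.9e-10) for SLC25A6 and -0.34 (SE 0.05, adjusted p = 2.2e-07) for SLC25A5. SLC25A4, the form typical of heart and skeletal muscle, had 69.1, 72.5 and 75.9 CPM in cytokine libraries, against 69.9, 71.1 and 69.8 CPM in vehicle libraries. Its groups overlapped and its change of 0.04 (95% confidence interval -0.06 to 0.15) did not pass, although library size alone gave -0.16 and a call as lower. Within libraries, SLC25A4 minus SLC25A5 was 0.38 higher with cytokines and SLC25A5 minus SLC25A6 was 0.12 higher, both without overlap (exact p = 0.1 and adjusted p = 0.122 for each). As a ratio of reads, SLC25A4 was at 0.490 of SLC25A5 in cytokine libraries and 0.376 in vehicle libraries.

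SLC25A3 imports the phosphate used for ATP synthesis. It had 145.3, 146.0 and 156.6 CPM in cytokine libraries, against 221.3, 224.7 and 230.3 CPM in vehicle libraries, so the groups were well apart. The log2 change was -0.60 (SE 0.04, adjusted p = 1.2e-12). SLC25A23, SLC25A24 and SLC25A25 exchange ATP-magnesium for phosphate under control of cytosolic calcium, and so set the size of the matrix nucleotide pool. SLC25A25, on chromosome 9 at 128068201 to 128109245 (plus strand), had 54.5, 54.8 and 56.7 CPM in cytokine libraries, against 30.4, 30.1 and 31.5 CPM in vehicle libraries. SLC25A23 went the other way, with 61.4, 53.2 and 52.3 CPM in cytokine libraries, against 82.0, 79.0 and 82.5 CPM in vehicle libraries. The groups of both genes were fully apart. SLC25A25 rose 1.80-fold, or 0.85 on the log2 scale (SE 0.06, adjusted p = 5.6e-13), and SLC25A23 changed by -0.54 (SE 0.06, adjusted p = 3.0e-09). SLC25A24 had 31.6, 29.6 and 30.0 CPM in cytokine libraries, against 33.4, 34.2 and 31.2 CPM in vehicle libraries, and its groups overlapped. Its change was -0.10 (95% confidence interval -0.24 to 0.03, adjusted p = 0.19), and it was called lower by library size alone. SLC25A17, the nucleotide and cofactor carrier of peroxisomes, did not pass, with a change of 0.01 that became -0.19 by library size alone.

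As a ratio of reads, SLC25A25 was at 0.997 of SLC25A23 in cytokine libraries and 0.379 in vehicle libraries. That shift of 1.40 on the log2 scale was without overlap (exact p = 0.1, adjusted p = 0.122). The shift of 0.43 for SLC25A24 minus SLC25A23 was also without overlap (exact p = 0.1, adjusted p = 0.122). These ratios are not scaled for gene length. Per kb of the median coding transcript, SLC25A25 was at 15.9 CPM and SLC25A23 at 39.1 CPM with cytokines. An antisense gene, SLC25A25-AS1, covers 13.5% of the SLC25A25 exon bases and had 26.2 CPM with cytokines against 26.6 CPM with vehicle, which did not pass. SLC25A5-AS1, over 15.1% of the SLC25A5 exon bases, was lower, at 3.32 CPM with cytokines against 4.35 CPM with vehicle. Genes of mitochondrial calcium uptake had 4 higher, 2 lower and 3 not passed of 9. The uniporter pore MCU averaged 48.6 CPM in cytokine libraries and 25.4 CPM in vehicle libraries, a log2 change of 0.93. The sodium-calcium exchanger SLC8B1 and the regulator MCUR1 changed by -0.44 and -0.25.

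**Figure D3:**
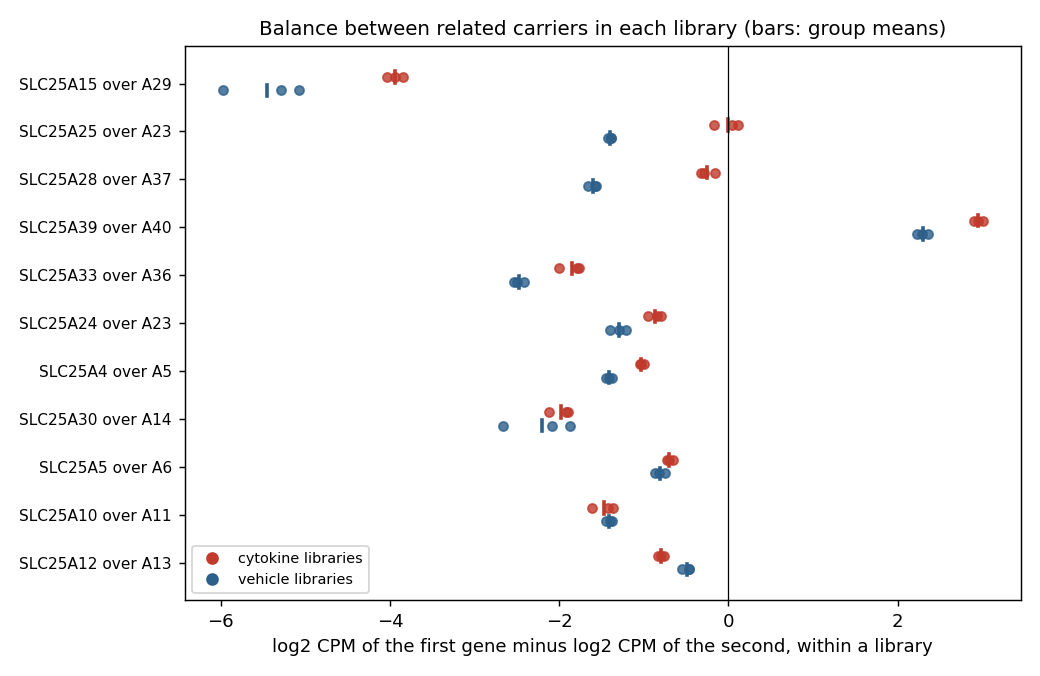
Log2 difference between the CPM of paired carriers within each library, cytokine libraries above vehicle libraries for each pair, so that scaling between libraries plays no part. In 9 of the 11 pairs the groups do not overlap, with the exceptions SLC25A10 minus SLC25A11 and SLC25A30 minus SLC25A14. Among single genes, 61.1% of all those tested had groups that did not overlap, and no such share is given here for other gene pairs.

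Carriers of cofactors, nucleotides and glutathione had 3 higher, 3 lower and 4 not passed of 10. SLC25A39 and SLC25A40 are the glutathione carriers. SLC25A39 had 137.7, 133.2 and 141.9 CPM in cytokine libraries, against 126.2, 125.8 and 123.8 CPM in vehicle libraries. SLC25A40 had 17.0, 17.1 and 18.8 CPM in cytokine libraries, against 24.5, 26.6 and 25.1 CPM in vehicle libraries. SLC25A40 was lower, with a log2 change of -0.53 (SE 0.08, adjusted p = 7.9e-07), whereas the rise of SLC25A39 by 0.14 (SE 0.05, adjusted p = 0.010) became -0.06 with scaling by library size alone and had an adjusted p of 0.056 without vehicle replicate 3. Their ratio of reads does not depend on scaling between libraries. SLC25A39 was at 7.74 times SLC25A40 in cytokine libraries and 4.90 times in vehicle libraries, a shift of 0.66 without overlap (exact p = 0.1, adjusted p = 0.122).

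SLC25A33 and SLC25A36 carry pyrimidine nucleotides for mitochondrial DNA and RNA. SLC25A33 had 20.3, 18.9 and 20.3 CPM in cytokine libraries, against 13.8, 15.8 and 15.7 CPM in vehicle libraries. SLC25A36 had 70.8, 76.1 and 69.1 CPM in cytokine libraries, against 80.7, 85.0 and 89.1 CPM in vehicle libraries. They moved in opposite directions, by 0.37 (SE 0.08, adjusted p = 3.1e-04) for SLC25A33 and -0.25 (SE 0.05, adjusted p = 1.7e-04) for SLC25A36. The rise of SLC25A33 was 0.17 by library size alone, where its adjusted p was 0.072, and 14.4% of its 75-base stretches also occur in other genes. SLC25A33 minus SLC25A36 shifted by 0.63, without overlap (exact p = 0.1, adjusted p = 0.122).

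SLC25A32, which brings folate and flavin cofactors into the matrix, had 21.4, 20.7 and 21.6 CPM in cytokine libraries, against 15.9, 15.8 and 16.3 CPM in vehicle libraries. It was higher by 0.40 (SE 0.08, adjusted p = 6.6e-05). The same-strand gene AC012213.5 covers 69.7% of the SLC25A32 exon bases. It shares 87.8% of the 75-base stretches of SLC25A32, so reads may be split between them. AC012213.5 was called higher, at 20.9 CPM with cytokines against 16.3 CPM with vehicle, but not by library size alone (adjusted p = 0.077). SLC25A16 and SLC25A42, linked to coenzyme A, SLC25A26, which imports S-adenosylmethionine, and SLC25A51, which imports NAD, did not pass. By library size alone SLC25A42, SLC25A26 and SLC25A51 were called lower, at -0.25, -0.34 and -0.32, and SLC25A16 was not called. Enzymes of one-carbon, glycine and S-adenosylmethionine metabolism were split, with 5 higher, 5 lower and 4 not passed of 14. The folate enzyme MTHFD2 and the methionine adenosyltransferase subunit MAT2B rose by 0.60 and 0.77, while SHMT1 and GLDC, which handle serine and glycine, changed by -0.93 and -0.68.

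The carriers that resemble uncoupling proteins are SLC25A14, SLC25A27 and SLC25A30, and 2 of the 3 were lower. SLC25A14 had 17.8, 18.0 and 20.0 CPM in cytokine libraries, against 25.1, 23.4 and 22.7 CPM in vehicle libraries. SLC25A27 had 46.0, 45.1 and 45.7 CPM in cytokine libraries, against 51.3, 50.3 and 56.5 CPM in vehicle libraries. Both groups were apart in both genes, with changes of -0.34 (SE 0.08, adjusted p = 5.4e-04) for SLC25A14 and -0.22 (SE 0.06, adjusted p = 0.0021) for SLC25A27. Without vehicle replicate 3 the SLC25A27 adjusted p was 0.071. SLC25A30 had 4.66, 4.64 and 4.49 CPM in cytokine libraries, within the 3.81, 5.42 and 6.08 CPM of the vehicle libraries, and its ratio to SLC25A14 overlapped between groups (exact p = 0.7, adjusted p = 0.7). UCP2, an uncoupling-protein gene of the same family under another symbol that is known in beta cells, averaged 55.5 CPM in cytokine libraries and 88.4 CPM in vehicle libraries, a log2 change of -0.67.

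Carriers with other roles or no assigned substrate showed 1 rise among 3 tested. SLC25A53, with no assigned substrate, had 36.0, 36.4 and 34.6 CPM in cytokine libraries, against 31.9, 28.1 and 30.4 CPM in vehicle libraries. Its groups did not overlap and it was higher by 0.25 (SE 0.07, adjusted p = 0.0019), but only 0.05 with an adjusted p of 0.53 by library size alone. SLC25A46, an outer-membrane protein of mitochondrial shape, changed by 0.05, and SLC25A43 by -0.05, neither past the test. With scaling by library size alone SLC25A46 was at -0.15 and was called lower.

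The 8 carriers below the count filter had at most 8 estimated counts in any library. SLC25A21 was at 0 in all 6, SLC25A2 had 1 count in 1 library, and SLC25A31, the ADP/ATP carrier of the testis, had 1 count in each of 2 cytokine libraries. SLC25A41 reached 8 counts in a cytokine library and 5 in a vehicle library, and the others in this set were SLC25A18, SLC25A47, SLC25A48 and SLC25A52. These genes were not tested, and no direction is drawn from counts this low.

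Levels of different genes were compared per kb of exon. The highest were SLC25A6 and SLC25A5, at a mean over all 6 libraries of 131.6 and 111.7 CPM per kb, then SLC25A1 at 64.2, SLC25A39 at 37.3, SLC25A22 at 32.8 and SLC25A29 at 27.3. These 6 genes held 45.1% to 45.7% of all carrier reads in cytokine libraries and 47.6% to 49.4% in vehicle libraries. The order depends on the length used: with the median coding transcript in place of all exons, SLC25A3 was at 137.9, next to SLC25A6 at 138.1 and ahead of SLC25A5 at 131.6 CPM per kb. All carriers together summed to 2106, 2104 and 2179 CPM in cytokine libraries, against 2476, 2423 and 2425 CPM in vehicle libraries. The means were 2129 ± 42.9 CPM with cytokines and 2441 ± 29.9 CPM with vehicle (SD, n = 3 each), a log2 ratio of -0.20 (exact permutation test, two-sided, p = 0.1, the smallest it can give). By library size alone that log2 ratio was -0.40. The sum was lower in all 3 cytokine libraries than in any vehicle library on both scales.

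**Figure D4:**
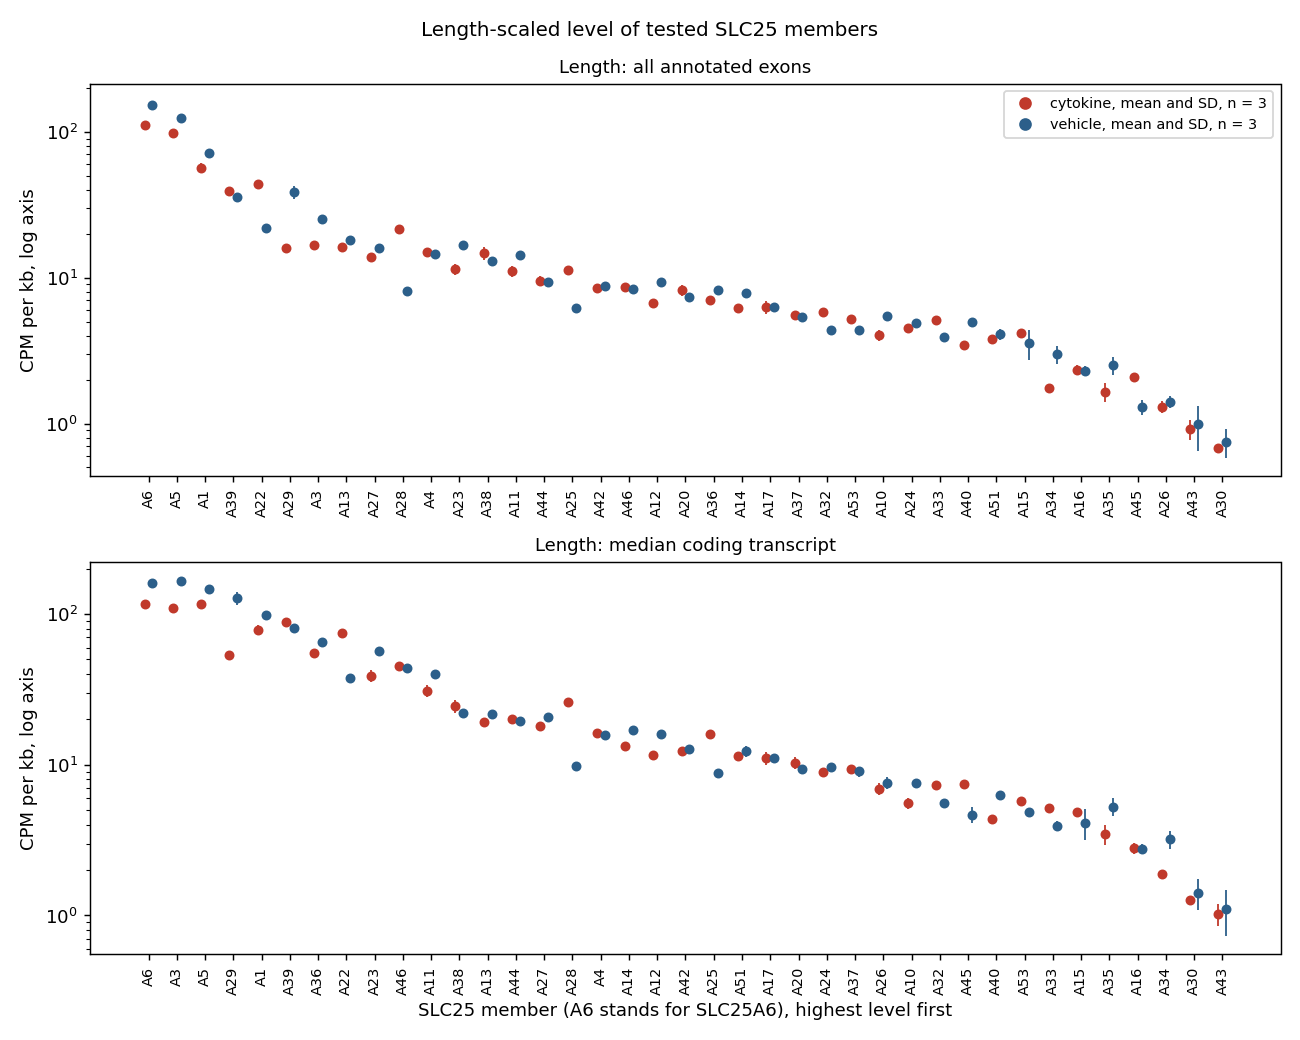
Mean CPM per kb of the tested carriers described here in cytokine and vehicle libraries on log axes, with points and SD over 3 libraries, per kb of all exons in one panel and per kb of the median coding transcript in the other. SLC25A6 and SLC25A5 are near the top of both panels, and SLC25A3 moves up when transcript length is used.

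Carriers reach the inner membrane by their own import route. Of 17 genes of that route through the outer membrane receptors and the TIM22 complex, 4 were higher, 4 lower and 9 not passed. Of all tested genes 28.3% were higher and 28.8% lower. With scaling by library size alone none of the 17 was higher, against 16.7% of all tested genes. TIMM10 and TIMM29 rose by 0.40 and 0.27, and TOMM34 and TOMM7 changed by -0.61 and -0.41. Other membrane channels for metabolites had 2 higher, 2 lower and 6 not passed of 10. The pyruvate carrier subunit MPC1 averaged 51.7 CPM in cytokine libraries and 32.6 CPM in vehicle libraries, a log2 change of 0.66. The outer-membrane pore VDAC3 was at 49.5 CPM with cytokines against 75.2 CPM with vehicle, a change of -0.60. The pore VDAC1 rose by 0.13, which became -0.07 by library size alone. Another gene of this list, SFXN2, changed by -0.37. Of 4 tested family members under other symbols, MTCH1 rose by 0.14, or -0.07 by library size alone, UCP2 was lower as above, and the other 2 did not pass.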

How the data were processed

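Total RNA of 3 cytokine and 3 vehicle EndoC-BH5 libraries went into libraries of a directional NEBNext kit, as the labels' protocols state. The authors deposited 1 table of estimated counts per gene, not normalized and with 67.3% to 73.5% of nonzero values whole, and columns named NT were taken as vehicle. It also holds the authors' log2 fold change, log2 CPM, F score and p-values, and the authors' averages, with no tool named per the file headers. The submitters' processing notes name cutadapt 2.10, STAR 2.7.5a, HTSeq 0.12.4 and GRCh38 without roles; the sources used here give no strand setting. The plan assumed counts, so the estimated counts were rounded to whole numbers.

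Genes passing filterByExpr were tested with edgeR 4.0.16 (R 4.3.3): TMM scaling, robust quasi-likelihood test, Benjamini-Hochberg adjustment over all 17847 tested genes at 0.05. The SE is the absolute log2 change divided by the square root of F. The common biological coefficient of variation was 3.47%. No library pair agreed within sampling noise. Pair ratios used log2 CPM with a prior count of 2. Gene lengths come from GENCODE 29, and promoters from RefSeq. The fit was tested on data simulated from the fitted model with few changed genes, which does not check the composition scaling. Per-library values are given for the 10 largest rises and falls past the test, the 6 highest levels per kb and the paired genes. From each companion list the 2 largest rises and falls past the test are named. Some genes enter the counts but are not reported here by name. The carriers, lists and pairs were chosen with earlier results of these data known. Alternatives were DESeq2 1.42.0, its size factors in edgeR, library size alone, other count filters, a 1.5-fold test, a replicate block and leaving out each library.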

Additional observations from a re-analysis of the deposited data

How the results depend on the processing

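The falls of 14 carriers and the rises of 5, out of 26 calls, passed under every alternative at the same threshold except the 1.5-fold test. Scaling by library size alone gave 5 carriers higher and 27 lower, 2980 genes higher and 8779 lower, and 13 companion genes higher and 67 lower, against 9, 17, 5057, 5142, 31 and 38 with TMM. It turned the log2 change negative for SLC25A38 (-0.027), SLC25A39 (-0.064), SLC25A15 (-0.049), SLC25A20 (-0.07), SLC25A46 (-0.15), SLC25A4 (-0.16), SLC25A37 (-0.17), SLC25A16 (-0.17), SLC25A44 (-0.18) and SLC25A17 (-0.19). The summed level moved to a log2 ratio of -0.40. Asking for more than 1.5-fold gave 3 carriers higher and 1 lower, 1395 genes higher and 950 lower, and 4 companion genes higher and 8 lower. DESeq2 with its own filter called 3356 genes lower, and no longer called SLC25A13 and SLC25A38, with adjusted p-values of 0.11 and 0.13. The cause was not tested beyond what each setting changes. Leaving out 1 library at a time gave 7 to 9 carriers higher and 15 to 17 lower. Around 0 it moved the log2 change of SLC25A17 over -0.044 to 0.103, SLC25A44 over -0.027 to 0.075, SLC25A16 over -0.029 to 0.086, SLC25A42 over -0.09 to 0.012 and SLC25A43 over -0.243 to 0.094. The shift of SLC25A10 minus SLC25A11 ranged over -0.114 to 0.013 and that of SLC25A30 minus SLC25A14 over -0.002 to 0.40. Libraries with the same replicate number did not deviate together (correlations of 0.0141, -0.045 and -0.0477). No pairing by number was seen, but with 3 libraries per group this check cannot exclude shared batches. A fit with the replicate number as a block gave 9 carriers higher and 17 lower. It gave 5010 genes higher and 5101 lower, and 30 companion genes higher and 39 lower. A median coding transcript as gene length was chosen after seeing the data. Depth limits the carriers of few reads: vehicle replicate 1 has the fewest counts, and intervals of SLC25A43 and SLC25A30 are the widest among those that did not pass.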
